A study of Mus musculus with 18 samples.

Results

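The 7 genes described here encode C-type lectin receptors of myeloid cells: Clec4e (Mincle), Clec4d (MCL, also called Dectin-3), Clec4n (Dectin-2), Clec4a2 (DCIR), Clec5a (MDL-1), Clec7a (Dectin-1) and Clec12a (MICL). They were chosen by symbol, as the rows of the deposited gene table whose identifiers map to these names, and make up 7 of its 56953 gene identifiers. All 7 passed the filter on low counts, so that no member is missing from the 13068 genes tested. The cells were macrophages grown from bone marrow for 7 days with supernatant of L929 cells, a source of M-CSF. One set of mice was C57BL/6J (B6), and the other was knock-in mice carrying the T169A substitution, threonine to alanine, in the kinase RIPK1 (T169A). Each genotype was studied without stimulation (unstimulated), after 2 hours of lipopolysaccharide (LPS, the bacterial ligand of TLR4), and after 2 hours of LPS/5z7. The abbreviation 5z7 is not spelled out by the labels. It is in common use for an oxozeaenol compound that inhibits TAK1, the kinase between TLR4 and the NF-kB and MAP kinase pathways. No group received 5z7 without LPS, so a change with LPS/5z7 can only be read against LPS or against unstimulated cells. The 6 groups held 3 libraries each. The labels do not say if replicate libraries stem from different mice or cultures, nor the age and sex of the mice. The p-values therefore reflect only how these libraries vary, which may be technical.

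C-type lectin receptors bind sugars, lipids or proteins of microbes and of damaged cells through an extracellular lectin-like domain. Mincle, MCL and Dectin-2 have short tails and signal through the adaptor FcR gamma (gene Fcer1g), MDL-1 signals through DAP12 (gene Tyrobp), and Dectin-1 carries its own activating motif. These receptors recruit the kinase SYK, which leads to the complex of CARD9, BCL10 and MALT1 and to NF-kB. DCIR and MICL carry inhibitory motifs that recruit the phosphatases SHP-1 and SHP-2 (genes Ptpn6 and Ptpn11). In macrophages Mincle is known for its rise after TLR stimulation, and it was first described as a target of the transcription factor C/EBP beta (NF-IL6).

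Promoter letters were looked up for the 7 genes, because some of them moved together after LPS, and RefSeq windows on build GRCm38.p6 were found for 6 of them (Clec4n had none in the table). The 250 bases before the transcript start are shown for the 4 genes that rose most after LPS, with C/EBP and PU.1 core matches in capitals. Runs of 8 capitals are C/EBP matches and runs of 6 capitals are PU.1 core matches. Clec4e lies on the minus strand at chr6:123289872-123290121, Clec4d on the plus strand at chr6:123261857-123262106, Clec5a on the minus strand at chr6:40585806-40586055 and Clec12a on the plus strand at chr6:129349994-129350243, and each is written 5′ to 3′ along its gene.
Clec4e: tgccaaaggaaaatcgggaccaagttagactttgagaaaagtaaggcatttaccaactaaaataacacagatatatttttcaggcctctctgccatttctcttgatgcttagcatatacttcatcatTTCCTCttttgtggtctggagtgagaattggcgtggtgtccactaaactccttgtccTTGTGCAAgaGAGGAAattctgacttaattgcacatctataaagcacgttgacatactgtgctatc
Clec5a: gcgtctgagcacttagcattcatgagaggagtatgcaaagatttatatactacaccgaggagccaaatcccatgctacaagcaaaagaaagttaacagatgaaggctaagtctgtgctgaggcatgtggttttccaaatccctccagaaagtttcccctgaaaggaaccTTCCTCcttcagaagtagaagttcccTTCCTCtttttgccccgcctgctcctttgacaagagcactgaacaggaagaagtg
Clec4d: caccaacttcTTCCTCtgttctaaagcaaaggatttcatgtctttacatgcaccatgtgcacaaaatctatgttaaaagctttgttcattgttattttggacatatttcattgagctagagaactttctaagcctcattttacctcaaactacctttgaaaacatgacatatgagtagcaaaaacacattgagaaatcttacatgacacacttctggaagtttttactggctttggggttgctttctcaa
Clec12a: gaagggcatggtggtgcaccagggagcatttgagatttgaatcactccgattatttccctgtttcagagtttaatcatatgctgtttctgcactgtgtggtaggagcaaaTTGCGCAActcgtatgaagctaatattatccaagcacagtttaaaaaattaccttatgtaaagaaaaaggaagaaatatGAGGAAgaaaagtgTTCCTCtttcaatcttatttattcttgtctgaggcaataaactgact

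Matches were searched on both strands in windows of 250 bases before and 50 after the start. Clec7a had 2 windows, of which only the one with the lower start coordinate was searched. The C/EBP letters TTGCNNAA were present in Clec4e, 59 to 66 bases before the start on the opposite strand, and in Clec12a, 133 to 140 bases before the start, against 10.8% of all 32851 windows. The PU.1 core GAGGAA was present in Clec4e, Clec4d, Clec5a, Clec7a and Clec12a and in 28.3% of all windows. In Clec4e a PU.1 core lies 51 to 56 bases before the start, next to the C/EBP match, with no shared base. The AP-1 letters TGANTCA were found in Clec12a, 207 to 213 bases before the start, and in Clec4a2 after the start, against 7.81% of windows. The interferon-stimulated response element, searched as GAAA, any 2 bases and GAAA, matched Clec4d just after the start and 3.44% of windows, and in Clec4d these letters overlap a PU.1 core. The NF-kB motif was searched as GGGRNWYYCC, where R is A or G, N any base, W A or T and Y C or T. It matched none of the 6 windows and 4.51% of all windows, so a lack of matches is also the usual case. Such matches describe letters only; binding was not measured.

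**Figure D1:**
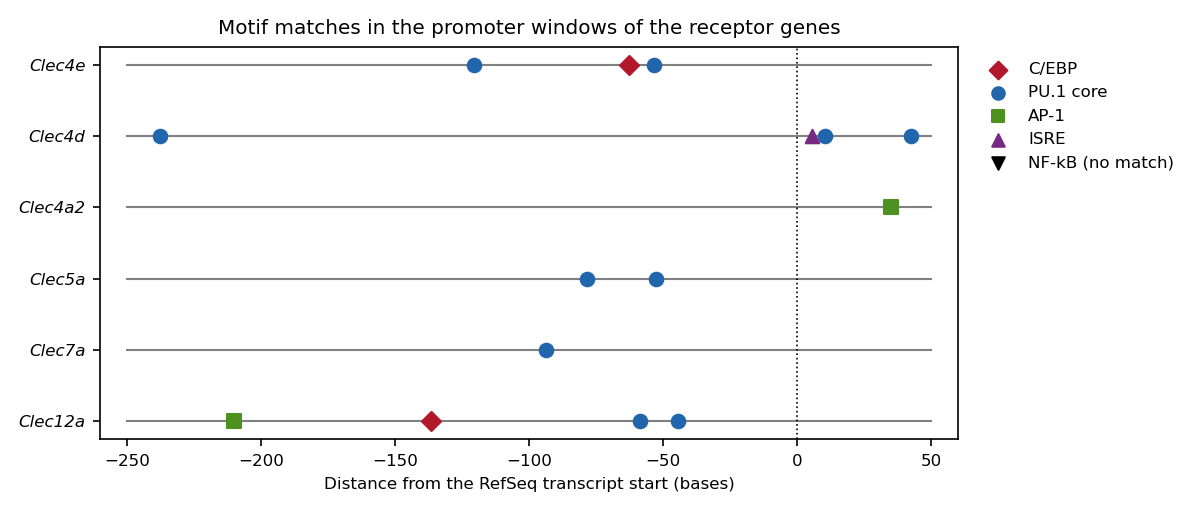
Motif matches in the promoter windows of 6 receptor genes, by distance from the RefSeq transcript start in bases (x axis, negative before the start), with 1 line per gene and 1 symbol per match. C/EBP matches (diamonds) are in the Clec4e and Clec12a windows, and no window holds an NF-kB match.

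The libraries held 14.6 to 30.4 M counts, and levels are given as counts per 1 M counts (CPM) scaled by TMM, the trimmed mean normalisation of edgeR. The TMM factors moved with treatment, at 1.24 to 1.28 in unstimulated, 0.83 to 0.86 in LPS and 0.926 to 0.959 in LPS/5z7 libraries, so small changes of a receptor depend on this scaling. Macrophage markers were high in all libraries: Lyz2 had the most counts in all 18, and the summed level of the 8 listed macrophage genes ran from 31658 to 44590 CPM. The summed level of 4 NK cell genes was at most 0.123 CPM and that of 4 mast cell and basophil genes at most 0.0824 CPM, with Ncr1, Gzma, Cpa3, Fcer1a and Ms4a2 at 0 in every library. The 6 T cell genes summed to at most 5.67 CPM, the 5 B cell genes to at most 5.11 CPM, the 6 dendritic cell genes to at most 3.89 CPM and the 5 fibroblast genes to at most 12.2 CPM. The 10 neutrophil genes summed to 26.2 to 85.1 CPM. In bulk RNA, fewer cells of a type and less RNA per cell cannot be told apart.

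The first comparison asked what 2 hours of LPS did to the receptors. In B6 cells 4 of the 7 genes rose, Clec4e, Clec5a, Clec4d and Clec12a, by log2 fold changes from 0.69 to 3.57, and none fell. In T169A cells the same 4 rose, by 0.85 to 4.11, and Clec4n and Clec4a2 were also called higher, by 0.34 and 0.36. Clec7a was not called in either genotype. A gene is called at an adjusted p under 0.05 in the edgeR quasi-likelihood test over all genes. Of all genes tested in B6, 29.6% were called higher and 33.5% were called lower, and in T169A these shares were 30.3% and 31.5%. The median log2 fold change was 0.69 over the 7 receptors against -0.07 over all genes in B6, and 0.85 against -0.03 in T169A.

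Clec4e, the Mincle gene, senses mycobacterial cord factor and other glycolipids, and it changed most among the 7. B6 unstimulated libraries 1, 4 and 7 stood at 151, 205 and 125 CPM, and the LPS libraries 2, 5 and 8 at 2025, 1989 and 1707 CPM. In T169A cells the unstimulated libraries 10, 13 and 16 held 128, 68.5 and 74.2 CPM, and the LPS libraries 11, 14 and 17 held 1695, 1534 and 1461 CPM. Every LPS library lay above every unstimulated library by a wide margin in both genotypes. The log2 fold change was 3.57 ± 0.21 (SE, n = 3 against 3; edgeR quasi-likelihood test, adjusted p = 1.83e-10) in B6, an 11.9-fold rise, and 4.11 ± 0.22 (adjusted p = 4.08e-11) in T169A, a 17.3-fold rise.

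Clec5a encodes MDL-1, which pairs with DAP12 and is best known from dengue virus infection of macrophages. Its level was 57.7, 72.7 and 60.8 CPM in B6 unstimulated and 213, 220 and 172 CPM in B6 LPS libraries. In T169A it was 51.8, 41.0 and 42.7 CPM before and 168, 144 and 150 CPM after LPS. The groups were clearly apart in both genotypes, with log2 fold changes of 1.66 ± 0.12 in B6 (edgeR adjusted p = 1.32e-09) and 1.77 ± 0.12 in T169A (adjusted p = 6.26e-10).

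Clec4d encodes MCL, which forms a complex with Mincle and with FcR gamma. Unlike Clec4e it was already abundant without stimulation, at 540, 695 and 699 CPM in B6 and 536, 464 and 521 CPM in T169A. After LPS it reached 1452, 1520 and 1303 CPM in B6 and 1416, 1331 and 1385 CPM in T169A. No LPS library overlapped an unstimulated one, and the rise was 1.14 ± 0.12 on the log2 scale in B6 (edgeR adjusted p = 2.31e-07) and 1.44 ± 0.12 in T169A (adjusted p = 1.32e-08).

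Clec12a encodes MICL, an inhibitory receptor for uric acid crystals and dying cells. B6 unstimulated libraries 1, 4 and 7 held 391, 419 and 563 CPM, with library 7 the highest, and B6 LPS libraries held 703, 730 and 774 CPM. In T169A the levels were 383, 370 and 394 CPM before and 653, 695 and 714 CPM after LPS. The groups did not overlap, and the log2 fold change was 0.69 ± 0.11 in B6 (edgeR adjusted p = 2.74e-05) and 0.85 ± 0.11 in T169A (adjusted p = 2.65e-06). With libraries scaled by their size alone, the B6 value was 0.09 and the call was lost (adjusted p = 0.447).

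Clec4a2 encodes DCIR, an inhibitory receptor of myeloid cells. B6 unstimulated libraries stood at 132, 122 and 190 CPM, so that library 7 reached into the range of the B6 LPS libraries at 159, 170 and 193 CPM. The B6 change was 0.23 ± 0.13 and not called (edgeR adjusted p = 0.119), while without library 7 it was 0.45 and called (adjusted p = 0.00015). In T169A the levels were 143, 126 and 128 CPM before and 162, 174 and 174 CPM after LPS, a change of 0.36 ± 0.13 (adjusted p = 0.0213). That call was lost without any one of libraries 13, 14, 16 and 17 (adjusted p = 0.0715, 0.0627, 0.0704 and 0.0572). The gene shares 6.69% of its 50-base stretches with Clec4a4, Clec4b1 or Sri, so a small part of its reads is uncertain in origin.

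Clec4n encodes Dectin-2, the receptor for fungal mannans. It stood at 220, 246 and 252 CPM in B6 unstimulated and 265, 282 and 241 CPM in B6 LPS libraries, which overlap, and the change of 0.14 ± 0.13 was not called (edgeR adjusted p = 0.382). T169A unstimulated libraries held 222, 170 and 173 CPM and T169A LPS libraries 261, 239 and 217 CPM, where the highest unstimulated library lies inside the LPS range. The T169A change of 0.34 ± 0.13 was called (adjusted p = 0.0299), and the call was lost without any one of libraries 11, 13, 14 and 16 (adjusted p = 0.132, 0.124, 0.0694 and 0.126).

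Clec7a encodes Dectin-1, the beta-glucan receptor. Its level was 327, 341 and 316 CPM in B6 unstimulated, 353, 361 and 315 CPM in B6 LPS, 327, 289 and 283 CPM in T169A unstimulated and 353, 318 and 284 CPM in T169A LPS libraries. All these ranges overlap. The log2 fold changes were 0.06 (95% interval -0.16 to 0.29) in B6 and 0.09 (-0.14 to 0.31) in T169A, and neither was called (edgeR adjusted p = 0.633 and 0.505). With libraries scaled by size alone, the LPS changes of Clec7a, Clec4n and Clec4a2 turned below 0 in both genotypes. Under that scaling the median of all genes was itself at -0.66 in B6 and -0.61 in T169A. Relative to that median, Clec7a at -0.53 and -0.50, Clec4n at -0.46 and -0.24 and Clec4a2 at -0.36 and -0.22 were again above.

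**Figure D2:**
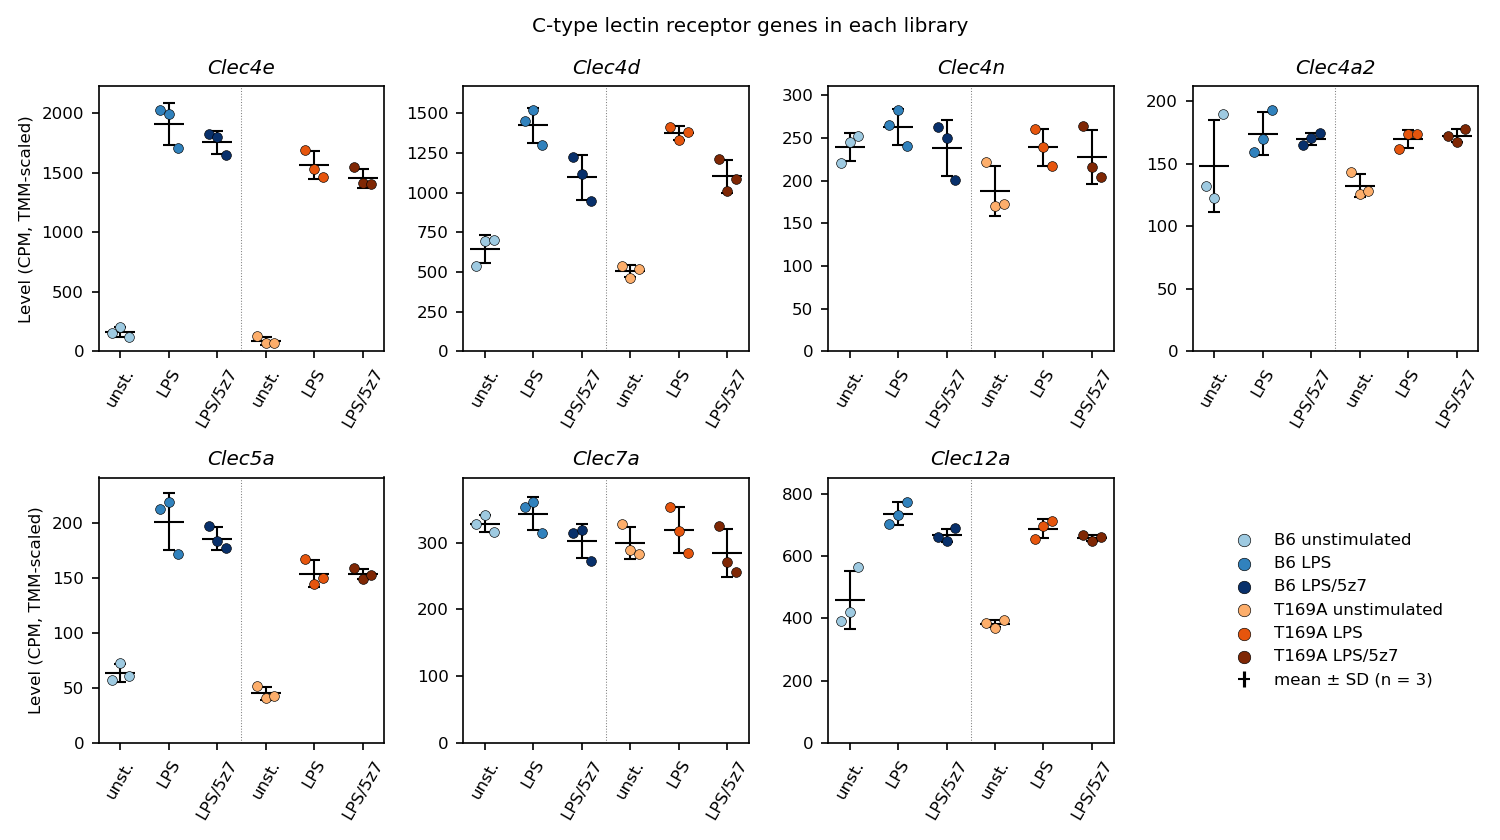
Levels of the 7 receptor genes in each library (CPM scaled by TMM, y axes from 0) in the 6 groups (x axes), with 1 point per library and bars for the mean ± SD of 3 libraries. Clec4e stands at 205 CPM or less in the unstimulated libraries and at 1401 CPM or more in all others, while Clec7a stays between 256 and 361 CPM.

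Shares and count ratios within a library do not depend on the scaling between libraries. Among the counts of the 7 genes, Clec4e made up 7.91 ± 2.07% (SD, n = 3) in B6 unstimulated, 37.7 ± 1.45% in B6 LPS and 39.8 ± 0.47% in B6 LPS/5z7 libraries. In T169A its share was 5.41 ± 1.51%, 34.6 ± 1.34% and 35.9 ± 0.54%. The mixture of receptor transcripts therefore shifted to Mincle in every stimulated library, and no unstimulated library came near. Clec4e had fewer counts than Clec4d before LPS, with a ratio of 0.251 ± 0.063 in B6 and 0.176 ± 0.054 in T169A. After LPS it had more, with 1.34 ± 0.05 and 1.13 ± 0.07. These count ratios are not corrected for transcript length. Per kilobase of annotated exon Clec4e stayed below Clec4d after LPS, at 384 against 891 CPM in B6 and 315 against 861 CPM in T169A. This order depends on the annotated exon lengths, 4965 bases for Clec4e and 1599 for Clec4d. The ratio of Clec5a to Clec7a went from 0.194 ± 0.019 to 0.587 ± 0.034 in B6 and from 0.150 ± 0.008 to 0.486 ± 0.039 in T169A. The sum of the 7 genes was 2042 ± 200 CPM in B6 unstimulated and 5049 ± 302 CPM in B6 LPS libraries. In T169A it was 1646 ± 134 and 4509 ± 173 CPM. Unlike the shares and ratios, this sum is scaled by TMM and depends on that scaling.

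**Figure D3:**
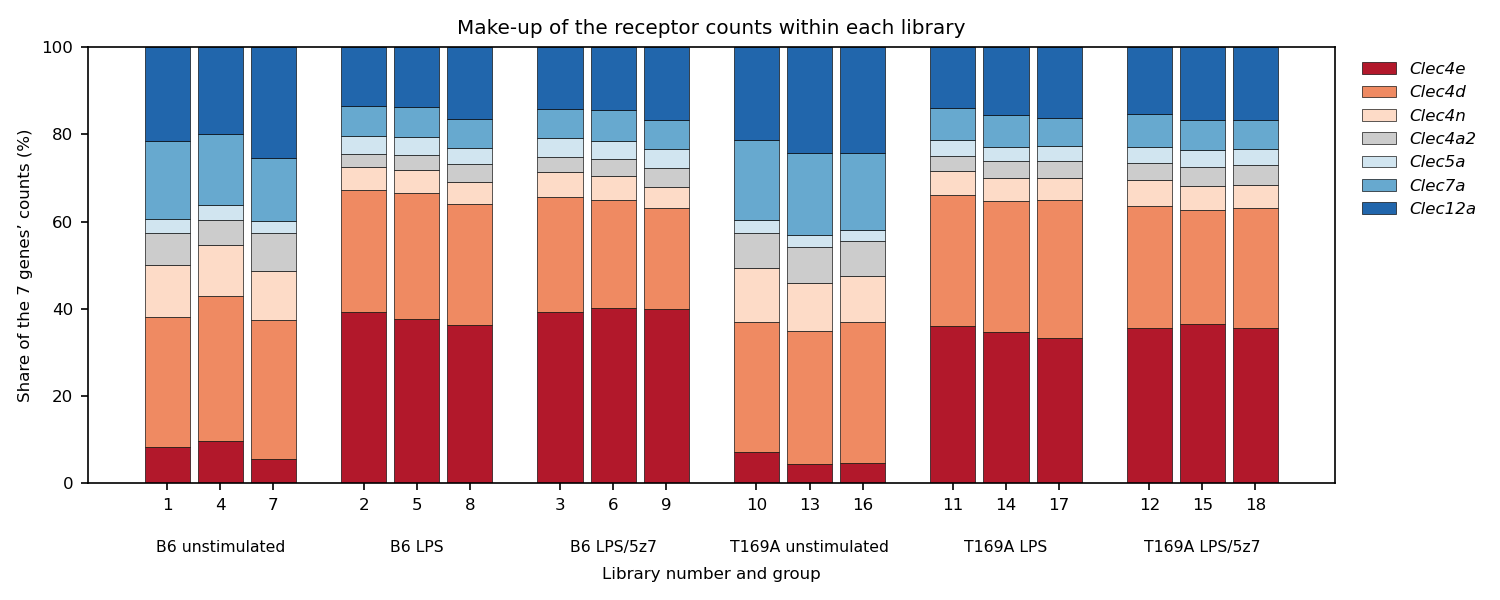
Share of each receptor gene in the summed counts of the 7 genes (y axis, percent) in each library (x axis, numbered by deposited column and ordered by group). The Clec4e part is 9.76% or less in the 6 unstimulated libraries and at least 33.3% in the 12 stimulated ones.

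Counts rise with transcript length, so genes were compared with each other per kilobase of annotated exon. In B6 unstimulated cells Clec4d led with 403 ± 56.8 CPM per kb, followed by Clec4n with 168 ± 11.8, Clec7a with 124 ± 4.64, Clec12a with 82.8 ± 16.7, Clec4a2 with 50.6 ± 12.5, Clec4e with 32.3 ± 8.21 and Clec5a with 16.6 ± 2.07 CPM per kb. Mincle thus moved from the sixth place to the second after LPS, when Clec4d stood at 891 ± 69.4 and Clec4e at 384 ± 35.0 CPM per kb, ahead of Clec4n at 185 ± 14.7, Clec12a at 133 ± 6.51, Clec7a at 130 ± 9.37, Clec4a2 at 59.5 ± 5.89 and Clec5a at 52.5 ± 6.66 CPM per kb. Clec12a and Clec7a did not differ beyond their spread after LPS, nor did Clec4a2 and Clec5a. The exon length counts every annotated transcript of a gene, so a gene with long alternative ends, such as Clec12a with 5528 bases, is set lower than one with short models, such as Clec4n with 1420 bases. Clec4e with 4965 bases and Clec4d with 1599 bases also differ in this way, so the place of Clec4e depends on these lengths.

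The second comparison, LPS/5z7 against LPS, asked how far the receptors' LPS levels depended on what 5z7 blocks. Clec4d fell in B6, by 0.38 on the log2 scale, and no other receptor was called in either direction in either genotype. In B6 7.03% of all genes were called higher and 6.79% were called lower, against 6.5% and 6.53% in T169A, so 1 of 7 in B6 and 0 of 7 in T169A are near the background. For T169A, edgeR put 1 receptor at an unadjusted p under 0.05, and DESeq2 called 1 lower; in both it was Clec4d.

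Clec4e stayed high with 5z7. The LPS/5z7 libraries 3, 6 and 9 of B6 held 1826, 1797 and 1645 CPM, inside or near the range of the LPS libraries, and libraries 12, 15 and 18 of T169A held 1547, 1417 and 1401 CPM. The change was -0.12 with a 95% interval of -0.53 to 0.29 in B6 (edgeR adjusted p = 0.791), and -0.10 with -0.51 to 0.31 in T169A (adjusted p = 0.831). A change of any size within those intervals could not be told from none with 3 libraries a group.

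Clec4d stood at 1227, 1115 and 948 CPM with LPS/5z7 in B6, below all 3 LPS libraries, and at 1211, 1010 and 1085 CPM in T169A, again below all 3. The change was -0.38 ± 0.12 in B6 (edgeR adjusted p = 0.0420) and -0.32 ± 0.12 in T169A (adjusted p = 0.0870, not called). The B6 call was lost without any one of libraries 2, 5, 6 and 9 (adjusted p = 0.0915, 0.131, 0.0797 and 0.159) and with libraries scaled by size alone (-0.21, adjusted p = 0.2). The difference between the genotypes was 0.06 ± 0.17 (edgeR adjusted p = 1), so the call in one genotype alone does not show that they differ. Within libraries the ratio of Clec4e to Clec4d counts was 1.61 ± 0.12 in B6 and 1.32 ± 0.07 in T169A with LPS/5z7, above the LPS ratios of 1.34 and 1.13.

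The other 5 receptors were not called with 5z7. Clec5a held 197, 184 and 177 CPM in B6 and 159, 150 and 153 CPM in T169A with LPS/5z7, changes of -0.12 and -0.00. Clec12a held 660, 648 and 689 CPM in B6, all under the LPS libraries, and 668, 649 and 660 CPM in T169A, changes of -0.14 ± 0.11 and -0.06 ± 0.11 that were not called (edgeR adjusted p = 0.459 and 0.817). The inhibitory receptor Clec4a2 held 165, 170 and 175 CPM in B6 and 172, 168 and 178 CPM in T169A. Clec4n stood at 263, 250 and 201 CPM in B6 and 263, 215 and 204 CPM in T169A, and Clec7a at 314, 319 and 273 CPM and at 324, 270 and 256 CPM. All 7 estimates were below 0 in B6, with a median of -0.14 against 0.02 over all genes, and 6 of 7 in T169A, with a median of -0.07 against 0.02. These signs hang on the scaling: with library size alone 5 of the 7 turned above 0 in B6 (Clec4e, Clec4n, Clec4a2, Clec5a and Clec12a) and 4 in T169A (Clec4e, Clec4n, Clec5a and Clec12a), none called, and the medians were 0.02 and 0.09, against 0.18 and 0.17 over all genes. No 95% interval among the 7 genes reached beyond 0.63 in size on the log2 scale.

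LPS/5z7 was also compared with unstimulated cells, the same libraries that the LPS comparison used. In B6 4 of 7 receptors were called higher and none lower, with 27.6% of all genes higher and 27.9% lower. In T169A 5 of 7 were called higher and none lower, with 28.1% of all genes higher and 27.5% lower. Clec4e was higher by 3.45 ± 0.21 in B6 and 4.01 ± 0.22 in T169A, Clec5a by 1.54 ± 0.12 and 1.77 ± 0.12, Clec4d by 0.77 ± 0.12 and 1.12 ± 0.12, and Clec12a by 0.54 ± 0.11 and 0.78 ± 0.11. Clec12a in B6 was at 0.11 with library size alone and no longer called (edgeR adjusted p = 0.366). Clec4a2 was higher by 0.20 in B6, not called (edgeR adjusted p = 0.193), and by 0.38 in T169A, called (adjusted p = 0.0170). Without B6 library 7 the former was 0.42 and called (adjusted p = 0.000383), and the latter was lost without any one of libraries 13, 16 and 18 (adjusted p = 0.0609, 0.0644 and 0.0597). Clec4n gave -0.01 in B6 and 0.27 in T169A, neither called, although the latter was called without library 10 (0.41, edgeR adjusted p = 0.0175). Clec7a gave -0.12 in B6 and -0.08 in T169A, neither called. With library size alone Clec4n in B6 (-0.43) and Clec7a in both genotypes (-0.55 and -0.50) were called lower, where the median of all genes was -0.47 in B6 and -0.43 in T169A.

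**Figure D4:**
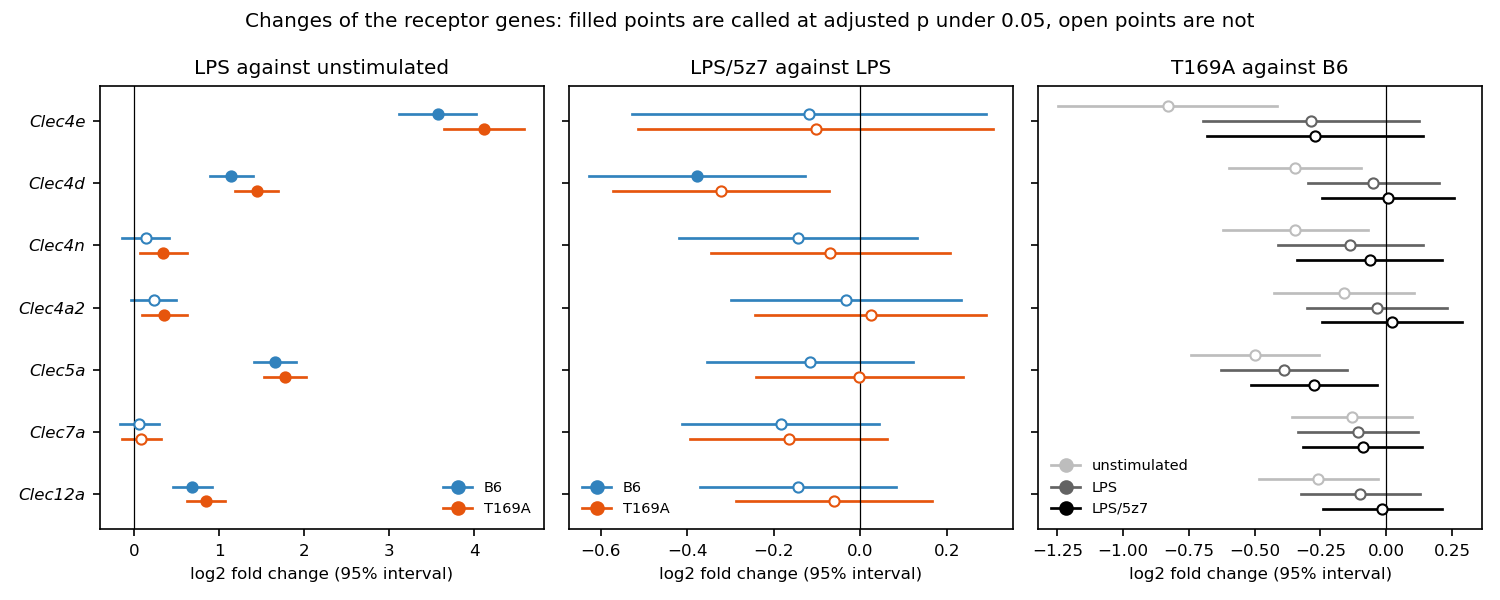
Log2 fold changes of the 7 receptor genes (points, x axes) with 95% intervals (lines) for LPS against unstimulated, LPS/5z7 against LPS and T169A against B6; filled points are called at an edgeR adjusted p under 0.05. In the middle panel the Clec4d point of B6 at -0.38 is the only filled one, and in the right panel no point is filled.

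The third comparison set T169A against B6 cells in the same condition. No receptor was called in any condition, while 0.0765% of all genes were called higher and 0.138% lower without stimulation, 0.0842% higher and 0.138% lower with LPS, and 0.0612% higher and 0.0995% lower with LPS/5z7. At an unadjusted p under 0.05, edgeR listed 5 of 7 receptors and 694 of all genes without stimulation, 1 and 729 with LPS, and 1 and 766 with LPS/5z7. DESeq2 called Clec4e and Clec5a lower in unstimulated T169A cells and none in the other conditions. The estimates of all 7 genes lay below 0 without stimulation and with LPS, with medians of -0.35 and -0.11 against -0.00 and 0.00 over all genes. With LPS/5z7 5 of 7 lay below 0, with a median of -0.06 against 0.00. The 7 genes were measured in the same libraries, so these counts of signs are 1 observation and not 7.

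Clec5a libraries of T169A and B6 cells stood at 41.0 to 51.8 and 57.7 to 72.7 CPM without stimulation. With LPS they stood at 144 to 168 and 172 to 220 CPM, and with LPS/5z7 at 150 to 159 and 177 to 197 CPM. The ranges were apart in all 3 conditions. The share of all genes with such a gap is not given here, so the gaps cannot be read as a trait of Clec5a. The log2 differences were -0.50 ± 0.11, -0.39 ± 0.11 and -0.27 ± 0.11, and none was called (edgeR adjusted p = 0.121, 0.394 and 0.766). Without stimulation DESeq2 called it (adjusted p = 0.0144), as did edgeR without a filter on low counts (adjusted p = 0.0472) and without library 10 (-0.61, adjusted p = 0.0441). Its ratio to Clec7a counts within libraries was 0.150 ± 0.008 in T169A and 0.194 ± 0.019 in B6 without stimulation, and 0.486 ± 0.039 and 0.587 ± 0.034 with LPS.

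Clec4e stood at 90.3 ± 32.9 CPM (SD, n = 3) in unstimulated T169A and 160 ± 40.8 CPM in unstimulated B6 libraries, with the highest T169A library above the lowest B6 library. The log2 difference of -0.83 ± 0.20 was not called by edgeR (adjusted p = 0.148) and was called by DESeq2 (adjusted p = 0.0135). Without B6 library 7 it was -0.98 (edgeR adjusted p = 0.0316) and without T169A library 10 it was -1.17 (edgeR adjusted p = 0.00209). With LPS and with LPS/5z7 the Clec4e differences were -0.29 ± 0.19 and -0.27 ± 0.19, neither called (edgeR adjusted p = 0.876 and 0.766). Unstimulated Clec4d gave -0.35 ± 0.12, not called (edgeR adjusted p = 0.602). The libraries of the genotypes did not overlap in these comparisons, but the share of all genes with such a gap is not given here. The T169A estimates of Clec4n, Clec12a, Clec4a2 and Clec7a without stimulation were -0.35, -0.26, -0.16 and -0.13, and the libraries of the genotypes overlapped for each.

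Whether the genotypes differ in their response was tested as a difference of effects. No receptor was called for any of the 3 effects, and 0% of all genes were (421 genes at an unadjusted p under 0.05 for LPS against unstimulated, 151 for LPS/5z7 against LPS and 461 for LPS/5z7 against unstimulated, in edgeR). Among the receptors 0, 0 and 1 had an unadjusted p under 0.05, the last being Clec4d, and DESeq2 called none. For the LPS effect the T169A minus B6 difference was 0.54 ± 0.28 for Clec4e (95% interval -0.04 to 1.13), 0.30 ± 0.17 for Clec4d, 0.21 ± 0.18 for Clec4n and 0.12 ± 0.18 for Clec4a2 (edgeR adjusted p from 0.916 to 0.917). Clec4n and Clec4a2 were thus called after LPS in T169A and not in B6 without a difference between the genotypes that passed the test.

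The order of the group means differed among the genes that rose. Clec4e ran from B6 LPS, B6 LPS/5z7, T169A LPS and T169A LPS/5z7 down to B6 and T169A unstimulated, with overlap between neighbours except for the step to the unstimulated groups. For Clec5a the same order held, with gaps after B6 LPS/5z7, after T169A LPS/5z7 and between the unstimulated groups. Clec4d was ordered by treatment first: both LPS groups overlapped at the top, both LPS/5z7 groups overlapped next, and the unstimulated groups came last. Clec12a had the 4 stimulated groups in one overlapping run above both unstimulated groups. For Clec4n, Clec4a2 and Clec7a every group overlapped its neighbour in the order.

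All 7 genes lie on chromosome 6, and gene order, taken from the older build GRCm38, places them in a pair of groups and a single gene. In the Clec4 group the order is Clec4a3, Clec4a4, Clec4b1, Clec4a2, Clec4b2, Clec4n, Clec4d and Clec4e. The LPS change in B6 was 0.02, -0.45 and -0.36 for Clec4a3, Clec4a4 and Clec4b1, none called, and further along it was 0.23 at Clec4a2, 0.14 at Clec4n, 1.14 at Clec4d and 3.57 at Clec4e. Clec4b2, with 11 counts in all 18 libraries, and the pheromone receptor genes Vmn2r19, Vmn2r20 and Vmn2r21 after Clec4e, with 0 counts, were not tested. In the Clec7a group the genes that rose stood beside genes that were not called. Clec2d and Cd69 rose by 2.18 ± 0.17 and 5.14 ± 0.27 in B6, Clec12a by 0.69, and Olr1, the oxidised LDL receptor LOX-1, by 6.44 ± 0.35, while Clec1b and Clec1a, with 291 and 198 counts in all, and Clec7a, the direct neighbour of Olr1, were not called. Clec5a stands alone, between genes of which Mgam was tested, with 210 counts in all libraries and a B6 change of 0.96 ± 0.40 (edgeR adjusted p = 0.0467). No exon of the 7 genes overlaps an annotated exon of another gene.

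**Figure D5:**
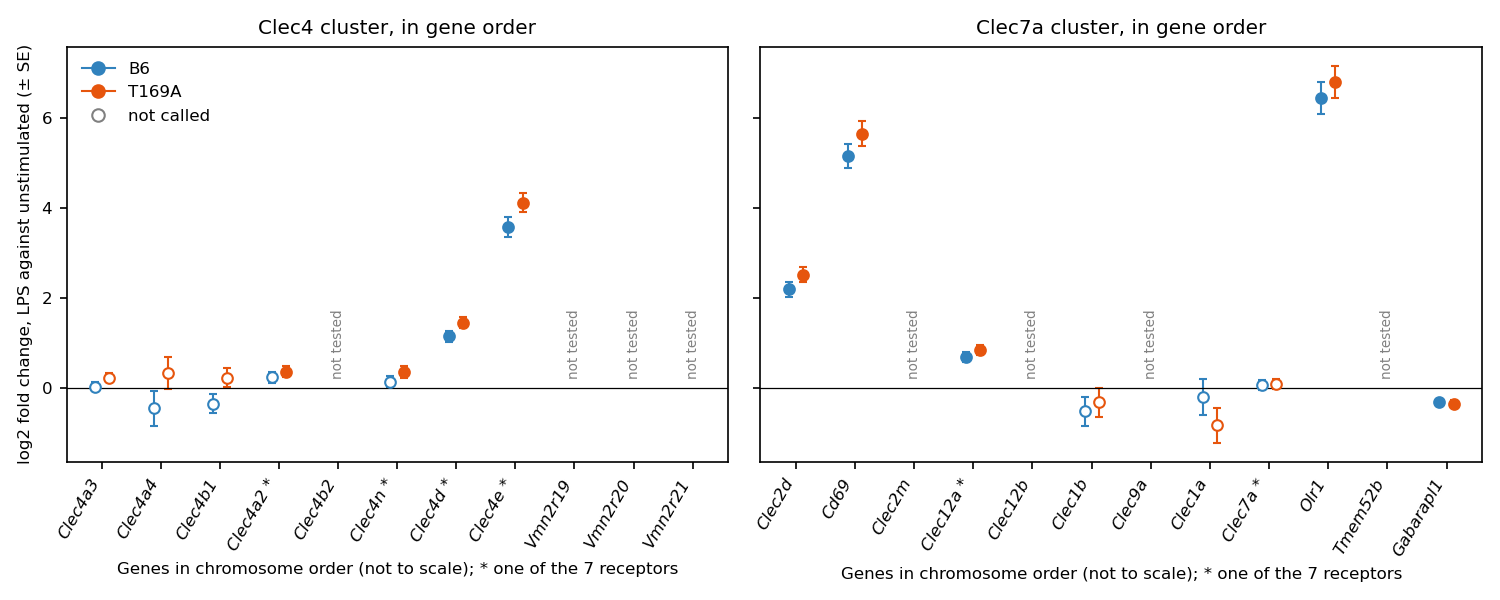
Log2 fold change after LPS (y axis, points with bars of ± 1 SE) of the genes around the receptors, in chromosome order (x axis, not to scale), in B6 and T169A; open points are not called. In the Clec4 group the B6 values lie between -0.45 at Clec4a4, not called, and 3.57 at Clec4e. In the Clec7a group Clec7a at 0.06 stands next to Olr1 at 6.44.

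Genes through which the receptors signal were followed in lists. Of 3 adaptor genes, Fcer1g, the partner of Mincle, MCL and Dectin-2, rose after LPS, from 483 ± 167 to 674 ± 127 CPM in B6 (0.48 ± 0.19, edgeR adjusted p = 0.0358) and by 0.70 ± 0.19 in T169A. Tyrobp, the partner of MDL-1, stood at 958 ± 231 and 923 ± 74.4 CPM and was not called, and neither was Hcst. With libraries scaled by size alone, Fcer1g was at -0.11 in B6 and 0.12 in T169A, neither called, and Tyrobp was called lower in both (-0.65 and -0.35). No adaptor was called between LPS/5z7 and LPS.

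Of 18 genes of SYK and nearby kinases and adaptors, 11 rose and 3 fell after LPS in B6 (median 0.47 against -0.07 over all genes), and 10 rose and 3 fell in T169A. These counts became, with library size alone, 7 higher and 8 lower in B6, and 7 and 7 in T169A. Src, a kinase that phosphorylates receptor motifs, rose from 14.9 ± 1.53 to 202 ± 6.71 CPM (3.76 ± 0.11), and Lcp2, the adaptor SLP-76, rose by 2.79 ± 0.12. Syk itself went from 533 ± 134 to 1635 ± 139 CPM (1.62 ± 0.14, edgeR adjusted p = 3.32e-08), and stood at 1612 ± 24.1 CPM with LPS/5z7. Plcg2 at 131 ± 16.9 and 142 ± 10.3 CPM was not called. With 5z7, 1 of the 18 was called, the kinase gene Tec, which fell by 0.91 in B6 and 0.94 in T169A; with library size alone 2 others were called higher in each genotype, and with DESeq2 size factors 2 others, Plcg2 and Lcp2, were called lower in B6 (edgeR adjusted p = 0.0428 and 0.0475).

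All 12 genes of the CARD9 module and its downstream steps were called after LPS in both genotypes, 6 higher and 6 lower (B6 median -0.04 against -0.07 over all genes). Of all genes in B6, 29.6% were called higher and 33.5% lower. With library size alone 2 were higher and 8 lower in B6, and 2 and 7 in T169A. Malt1, the protease of the complex, rose from 40.3 ± 14.3 to 768 ± 109 CPM (4.25 ± 0.24) and Bcl10 by 1.38 ± 0.08, while Trim62, a ubiquitin ligase for CARD9, fell by 2.25. Card9, named here after its values were seen because the module bears its name, fell from 45.6 ± 11.2 to 29.1 ± 3.82 CPM (-0.65 ± 0.15, edgeR adjusted p = 0.0014). With 5z7, 3 rose and 1 fell in B6, and 2 rose and 1 fell in T169A, and with library size alone 5 rose in B6. Map3k14, the kinase NIK, rose by 0.79 ± 0.11, Rubcn by 0.55 ± 0.10 and Trim62 by 0.99 ± 0.19 in B6, and Malt1 at 536 ± 10.05 against 768 ± 109 CPM was not called (edgeR adjusted p = 0.123).

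Among 8 inhibitory phosphatases and adaptors, 1 rose and 3 fell after LPS in B6, and 2 rose and 3 fell in T169A, against 0 and 6 in each with library size alone. Inpp5d, the lipid phosphatase SHIP-1, fell from 360 ± 60.8 to 141 ± 2.05 CPM (-1.36 ± 0.10). The partners of DCIR and MICL went opposite ways: Ptpn6 (SHP-1) fell by 0.58 and Ptpn11 (SHP-2) rose by 0.82 ± 0.12. With library size alone Ptpn11 was at 0.23 and not called (edgeR adjusted p = 0.0667). Cbl at 233 ± 112 and 280 ± 71.8 CPM was not called. With 5z7, 1 of the 8 was called in each genotype, Ptpn6, which rose by 0.32 ± 0.10 in B6 (edgeR adjusted p = 0.0420) and was not called there with DESeq2 size factors (adjusted p = 0.0589).

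Of 28 other C-type lectin genes listed, 16 had enough counts to be tested. In B6 7 of the 16 rose after LPS and 1 fell, and in T169A 5 rose and 1 fell. Cd69, Olr1 and Clec2d had the smallest p in B6. With library size alone the counts were 5 higher and 7 lower in B6, and 4 and 6 in T169A. Mrc1, the mannose receptor, had levels of 456 ± 25.7 CPM (LPS) and 430 ± 54.9 CPM (LPS/5z7) in B6. With 5z7, 1 of the 16 was called in each genotype (with library size alone 2 more in B6 and 1 more in T169A, all higher), Olr1, which fell from 407 ± 10.4 to 184 ± 11.6 CPM in B6 (-1.14 ± 0.27, edgeR adjusted p = 0.00981) and by 1.29 on the log2 scale in T169A.

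The 4 transcription factor genes listed for these promoters were all called after LPS. Cebpb, the C/EBP beta gene, rose from 51.7 ± 7.54 to 102 ± 12.3 CPM in B6 (0.98 ± 0.23, edgeR adjusted p = 0.00114) and by 1.73 ± 0.23 in T169A. With library size alone the B6 rise of Cebpb was 0.39 and not called (edgeR adjusted p = 0.121). Cebpd rose by 2.35 ± 0.29 and Spi1, which encodes PU.1, by 0.95 ± 0.12, while Cebpa fell from 387 ± 62.1 to 45.0 ± 4.06 CPM. With 5z7 all 3 C/EBP genes fell in B6, Cebpb to 44.6 ± 11.6 CPM (-1.19 ± 0.23, edgeR adjusted p = 0.00197), Cebpd by 0.97 and Cebpa by 0.43, and all 3 fell in T169A. Cebpa lost this call in both genotypes with library size alone (-0.27 and -0.31). Spi1 stood at 710 ± 53.7 and 709 ± 87.1 CPM and was not called. In the same B6 libraries Clec4e, whose promoter window holds a C/EBP match, had levels of 1907 ± 174 CPM (LPS) and 1756 ± 97.4 CPM (LPS/5z7). Clec12a, the other receptor gene with such a match, had 736 ± 36.0 and 666 ± 21.1 CPM. Whether the C/EBP genes bear on either receptor was not tested. No gene of these 6 lists was called between the genotypes or for a difference of effects.

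The neutrophil list moved with the LPS response and stands beside it, since neutrophils also express Clec4e, Clec4d, Clec5a and Clec12a. Of its 10 genes 6 were tested, and 5 rose in B6 and 4 in T169A after LPS, against 1 and 0 with library size alone. Among all genes tested, 29.6% were called higher in B6 and 30.3% in T169A. The summed level was 26.2 to 37.5, 51.2 to 63.2 and 32.7 to 48.2 CPM in B6 unstimulated, LPS and LPS/5z7 libraries, and 37.2 to 53.8, 52.6 to 85.1 and 44.8 to 70.9 CPM in T169A. Ly6g, which defines neutrophils in mice, was at 0 in the 3 B6 LPS/5z7 libraries and had counts in each of the other 5 groups, and no other gene of the list was at 0 in a whole group. Of the dendritic cell list Zbtb46 was tested and rose (2.83 ± 0.30 in B6), within sums of at most 3.89 CPM, and Cd79b of the B cell list fell. In the fibroblast list Col3a1 rose in T169A, and the 1 T cell gene tested was not called. Their part in the receptor changes was not tested.

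Genes with the most similar pattern were found by the correlation of log2 CPM over the 18 libraries, which is a description, since the libraries share the 3 conditions. Clec4e was most like Acod1, which makes itaconate (r = 0.998), Cd69 (r = 0.998) and Mefv, the pyrin gene (r = 0.998). Clec5a was most like H2-M2 (r = 0.994), Riox2 (r = 0.991) and Mmp14, a membrane-bound matrix protease (r = 0.990). Clec4d stood closest to the chaperonin genes Tcp1 (r = 0.990) and Cct8 (r = 0.989) and to Gm14636 (r = 0.988), and Clec12a to Hcls1 (r = 0.990), the MHC class I gene H2-K1 (r = 0.990) and the immunoproteasome gene Psmb8 (r = 0.985). For Clec4a2 the list was Ms4a7 (r = 0.955), Bri3 (r = 0.954) and Cd52 (r = 0.952). Clec7a and Clec4n had weaker partners, Gdpd1 (r = 0.917), Eif2a (r = 0.869) and Nap1l1 (r = 0.850) for the former and Sfn (r = 0.872), Npm1 (r = 0.872) and Esd (r = 0.867) for the latter. Among the receptors, Clec4e and Clec5a were the closest pair (r = 0.991), Clec4e and Clec4d gave 0.951, and Clec4e and Clec7a gave 0.071.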

How the data were processed

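RNA for 18 libraries was sequenced after directional TruSeq preparation, per the labels' protocols. The deposited values are whole-number gene counts without normalization. The submitters' processing notes name Trim Galore, STAR, featureCounts and build GRCm39; versions, the strand setting and the handling of reads with several matches are not given in the sources used here, so reads of near-identical or antisense genes are uncertain. Columns name a group and a running number, so libraries were tied to groups only. Symbols and exon lengths came from GENCODE M21 (GRCm38), which matched 52029 identifiers (91.4%) holding 99.8% of counts, and promoters from RefSeq.

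Counts were fitted with edgeR 4.0.16 in R 4.3.3: filterByExpr by group, TMM scaling, a robust quasi-likelihood model of 6 group means over 18 libraries, F-tests for 12 comparisons, and Benjamini-Hochberg adjustment over 13068 genes at 0.05. SEs are on the log2 scale. Depth was 14.6 to 30.4 M counts, and a floor of 3 counts is 0.0986 to 0.205 CPM. Replicate pairs differed by 2.89 to 101 times counting variance over genes with at least 20 counts, so none differed by counting alone. Pairs with B6 unstimulated library 7 gave 81.3 and 101, while libraries 1 and 4 of that group gave 5.92. Such values do not show if replicates were separate cultures. Named genes are all 7 receptors; for each of the 6 pathway lists (receptor adaptors, SYK and proximal kinases, CARD9 module, inhibitory phosphatases, other C-type lectins, transcription factors) the 3 called genes with the smallest p and the most abundant uncalled gene in the B6 comparisons; and 3 most similar genes per receptor (log2 CPM with a prior count of 2). One gene that this rule names is not reported here. Markers of 8 cell types were summed. Members and lists were chosen with earlier results of these data known. Alternatives were DESeq2 1.42.0, its size factors, library size alone, other filters, the compared groups alone, and each library left out. The fit was also run on simulated data, and the outcome is not reported here. Figures used Python 3.11.15 and matplotlib 3.10.9.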

Additional observations from a re-analysis of the deposited data

How the results depend on the processing

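Among the receptor changes recomputed with all libraries under other settings, 527 kept their direction and side of the threshold, 10 gained and 3 lost a call, and 27 changed sign, 20 of them called in neither fit. With 1 library left out, 568 kept both, 6 gained and 15 lost a call, and 41 changed sign, none of them called in either fit. The 7 sign changes with a call all came with libraries scaled by size alone, where the LPS change was -0.46 (B6) and -0.24 (T169A) for Clec4n, -0.36 and -0.22 for Clec4a2 and -0.53 and -0.50 for Clec7a, and the LPS/5z7 against unstimulated change of Clec4a2 in T169A was -0.043. Uncalled estimates that changed sign under that scaling were, for LPS/5z7 against LPS, 0.045 for Clec4e, 0.021 for Clec4n, 0.13 for Clec4a2, 0.048 for Clec5a and 0.020 for Clec12a in B6 and 0.054 for Clec4e, 0.087 for Clec4n, 0.16 for Clec5a and 0.095 for Clec12a in T169A, and for LPS/5z7 against unstimulated -0.23 for Clec4a2 in B6 and -0.15 for Clec4n in T169A. Other such estimates lay close to 0: Clec4a2 for LPS/5z7 against LPS in T169A (-0.0023 with DESeq2 and -0.0024 with its size factors), Clec4n for LPS/5z7 against unstimulated in B6 (0.00031 with DESeq2 and 0.019 with the compared groups alone), and for T169A against B6 with LPS/5z7 Clec4d (-0.0036 with DESeq2 and -0.0026 with its size factors) and Clec12a (0.0061 with library size alone and 0.0028 without a filter). Library size alone also put the number of receptors lower at 3 (LPS, B6), 1 (LPS, T169A), 0 (LPS/5z7 against LPS, B6), 2 (LPS/5z7 against unstimulated, B6) and 1 (the same, T169A). Receptors lower with LPS/5z7 against LPS in T169A numbered 1 with DESeq2 and 1 with the compared groups alone. Receptors lower in unstimulated T169A cells numbered 2 with DESeq2 and 1 without a filter, with a range of 0 to 2 when 1 library was left out (1 without B6 library 7, 2 without T169A library 10); for LPS/5z7 against LPS in B6 that range was 0 to 1. Uncalled estimates whose sign changed when 1 library was left out ranged over Clec7a -0.010 to 0.16 (LPS against unstimulated in T169A), Clec4a2 -0.11 to 0.023 (LPS/5z7 against LPS in B6), Clec4a2 -0.012 to 0.044 and Clec5a -0.056 to 0.061 (LPS/5z7 against LPS in T169A) and Clec4n -0.084 to 0.084 (LPS/5z7 against unstimulated in B6); over Clec4a2 -0.28 to 0.061 (T169A against B6 without stimulation), Clec4a2 -0.10 to 0.034 (T169A against B6 with LPS) and Clec12a -0.025 to 0.016, Clec4d -0.082 to 0.096 and Clec4n -0.17 to 0.017 (T169A against B6 with LPS/5z7). For differences of effects the ranges were Clec12a -0.016 to 0.26, Clec4a2 -0.095 to 0.24, Clec5a -0.0043 to 0.22 and Clec7a -0.076 to 0.092 (LPS against unstimulated), Clec4a2 -0.0056 to 0.13, Clec4d -0.024 to 0.14, Clec4e -0.019 to 0.11, Clec4n -0.029 to 0.16 and Clec7a -0.075 to 0.12 (LPS/5z7 against LPS) and Clec4a2 -0.039 to 0.30 and Clec7a -0.064 to 0.11 (LPS/5z7 against unstimulated). The cause was not tested.

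Counts over all genes (higher and lower) moved by over 1.5 times with library size alone, from 3868 and 4372 to 1996 and 8484 for LPS in B6, from 3965 and 4120 to 1934 and 8106 in T169A, from 919 and 887 to 2339 and 516 for LPS/5z7 against LPS in B6, from 850 and 853 to 2177 and 530 in T169A, and from 3610 and 3647 to 2075 and 7334 (B6) and 3678 and 3591 to 1975 and 6999 (T169A) for LPS/5z7 against unstimulated. With the compared groups alone the genotype counts were 4 and 3 against 10 and 18 (unstimulated), 4 and 9 against 11 and 18 (LPS) and 53 and 170 against 8 and 13 (LPS/5z7), and 562 genes were higher with LPS/5z7 against LPS in T169A. With DESeq2, 46 and 36 genes were lower in T169A unstimulated and LPS cells, 16 were higher and 28 lower with LPS/5z7, and 2 passed for the LPS/5z7 against unstimulated difference of effects. Without a filter the LPS/5z7 genotype counts were 16 and 23, and 591 genes were higher with LPS/5z7 against LPS in B6. With 1 library left out, genes higher with LPS/5z7 against LPS came to 471 to 605 in B6 (fewest without library 5) and 449 to 795 in T169A (fewest without library 18), and genes lower to 560 to 839 in T169A (fewest without library 18). Genes lower in unstimulated T169A cells came to 34 without library 7 and 37 without library 10. In T169A against B6 cells with LPS the counts fell to as few as 6 higher (without library 5 or 14) and 10 lower (without library 2, 5 or 17), and with LPS/5z7 to as few as 8 lower (without library 18).

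In the sample titles each letter occurs once in each of the 3 conditions of a genotype, so libraries may be paired by letter. The running numbers of the columns follow the same order of groups as the titles. No label ties a column to a letter, so the planned fit with the letter was not run. With sets of consecutive column numbers as a replicate block, chosen after seeing the data, deviations of same-set libraries correlated between -0.0463 and 0.456 in B6 and -0.0239 and 0.43 in T169A, and 6 of 9 in each were closest to their own set. This is a hint from the data, not the design, and since not every correlation was over 0.1 the sets were not taken as pairs. That block called Clec4a2 after LPS in B6 (0.25, edgeR adjusted p = 0.038) and Clec4n for LPS/5z7 against unstimulated in T169A (0.28, edgeR adjusted p = 0.0188), put Clec5a for LPS/5z7 against LPS in T169A at 0.00090, and changed no other receptor call.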
